A study of Homo sapiens with 12 samples.

Results

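Cytosolic DNA sensing is described here through 8 genes: CGAS, STING1, TBK1, IRF3, TREX1, ENPP1, IKBKE and MAVS. They were listed by gene name under a rule that used no measured value, though earlier results of these data were known. Of the 8, 7 had a row in both count tables, among 38997 features common to both. TREX1, an exonuclease that degrades DNA in the cytosol, was not analysed here. Poly(A) RNA was sequenced from 2 established human uveal melanoma cell lines, MP38 and 92.1, each exposed for 72 hours to the solvent DMSO or to VE-822. VE-822 (berzosertib) inhibits ATR, a kinase that protects stalled replication forks. Every combination of line and treatment had 3 libraries, 12 in all: MP38 DMSO, MP38 VE-822, 92.1 DMSO and 92.1 VE-822. The labels give no concentration of VE-822, only that it was set to leave about 40% viability, so dose and line cannot be separated. Whether a group's libraries were separate cultures is not given, and p-values then measure only the spread between these libraries, which may be technical.

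Double-stranded DNA in the cytosol or in ruptured micronuclei is bound by cGAS, which then makes the second messenger cGAMP. cGAMP binds STING on the endoplasmic reticulum, STING moves to the Golgi and recruits the kinase TBK1, and TBK1 phosphorylates the transcription factor IRF3, which enters the nucleus and switches on type I interferon genes. Loss of cGAS or STING expression has been described in melanoma cell lines, and MAVS carries the parallel signal from the RNA sensors RIG-I and MDA5 to the same kinases.

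Promoter sequences are shown for the 3 genes that changed with VE-822 in at least 1 line and that have an entry in the RefSeq table used (GRCh38.p14): TBK1, ENPP1 and MAVS. Each run covers 250 bases before the start annotated in RefSeq, on the plus strand, 5′ to 3′. Each window ends past the gene start given below, which comes from another annotation. Capitals mark the motifs searched for on both strands. TBK1 is at chr12:64451870-64452119, ENPP1 at chr6:131807770-131808019 and MAVS at chr20:3846584-3846833.
TBK1: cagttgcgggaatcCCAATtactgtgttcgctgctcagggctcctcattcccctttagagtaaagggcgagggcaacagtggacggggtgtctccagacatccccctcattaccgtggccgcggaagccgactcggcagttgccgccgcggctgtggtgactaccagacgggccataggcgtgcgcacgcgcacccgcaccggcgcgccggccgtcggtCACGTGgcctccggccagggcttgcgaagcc
ENPP1: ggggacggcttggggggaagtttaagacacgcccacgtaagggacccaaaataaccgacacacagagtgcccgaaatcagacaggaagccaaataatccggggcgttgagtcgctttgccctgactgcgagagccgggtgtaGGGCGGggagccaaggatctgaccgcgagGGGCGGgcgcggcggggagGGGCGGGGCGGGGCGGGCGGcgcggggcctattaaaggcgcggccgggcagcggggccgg
MAVS: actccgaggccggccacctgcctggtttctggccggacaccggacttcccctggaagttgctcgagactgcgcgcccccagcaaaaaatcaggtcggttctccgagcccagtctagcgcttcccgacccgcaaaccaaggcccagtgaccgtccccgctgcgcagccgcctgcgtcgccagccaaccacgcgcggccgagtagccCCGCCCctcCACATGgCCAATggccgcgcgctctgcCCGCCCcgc
The core of the interferon-stimulated response element, GAAANNGAA, was found in none of these 3, nor in the entries of IKBKE and TREX1, and in 6.88% of 35116 promoters of the same length. The GC box GGGCGG, present in 42.6% of all promoters, occurred in ENPP1 and MAVS, with overlapping copies in ENPP1. CATGTG, an E-box of the kind bound by the melanocyte factor MITF, occurred in MAVS and in 9.42% of all promoters. CACGTG, another E-box, occurred in TBK1 and in 6.34% of all, and CCAAT occurred in TBK1 and MAVS and in 32% of all. A match is a description of the letters in this window only.

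Total counts were 54415628 to 63638976 per MP38 library and 112374503 to 137664800 per 92.1 library, so line, table and depth cannot be told apart. DMSO library 3 of 92.1 stood apart: its chi-square per gene against DMSO libraries 1 and 2 was 93.0 and 93.6, and other replicate pairs gave 2.39 to 8.32. Leaving it out raised the genes called lower in 92.1 from 4498 to 6899, and results that turn on it are given with and without it. The 7 melanocyte markers were present in every group, with a summed level of 4143 to 5172 CPM in MP38 and 19891 to 21543 CPM in 92.1. They did not share 1 direction, and the 92.1 sum came mostly from TYRP1 and PMEL. TYRP1 averaged 27.2 CPM in MP38 DMSO and 11718.5 CPM in 92.1 DMSO, and PMEL, MLANA and MITF were also higher in 92.1 DMSO. TYR (833 and 112 CPM), DCT (598 and 13.1 CPM) and SOX10 (597 and 411 CPM) were lower there. The 7 leukocyte markers each averaged under 1 CPM in every group, and their sum did not exceed 1.51 CPM. The epithelial sum, 39.2 to 49.7 CPM in MP38 and at most 2.87 CPM in 92.1, came mostly from KRT18, and the endothelial sum did not exceed 3.65 CPM. The fibroblast sum was lowest in MP38 DMSO, at 0.267 to 0.422 CPM, then 1.44 to 1.81 CPM in MP38 VE-822. In 92.1 it spanned 5.13 to 6.25 CPM with DMSO, and with VE-822 it spanned 8.21 to 8.75 CPM. Their part in the results below was not tested.

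**Figure D1:**
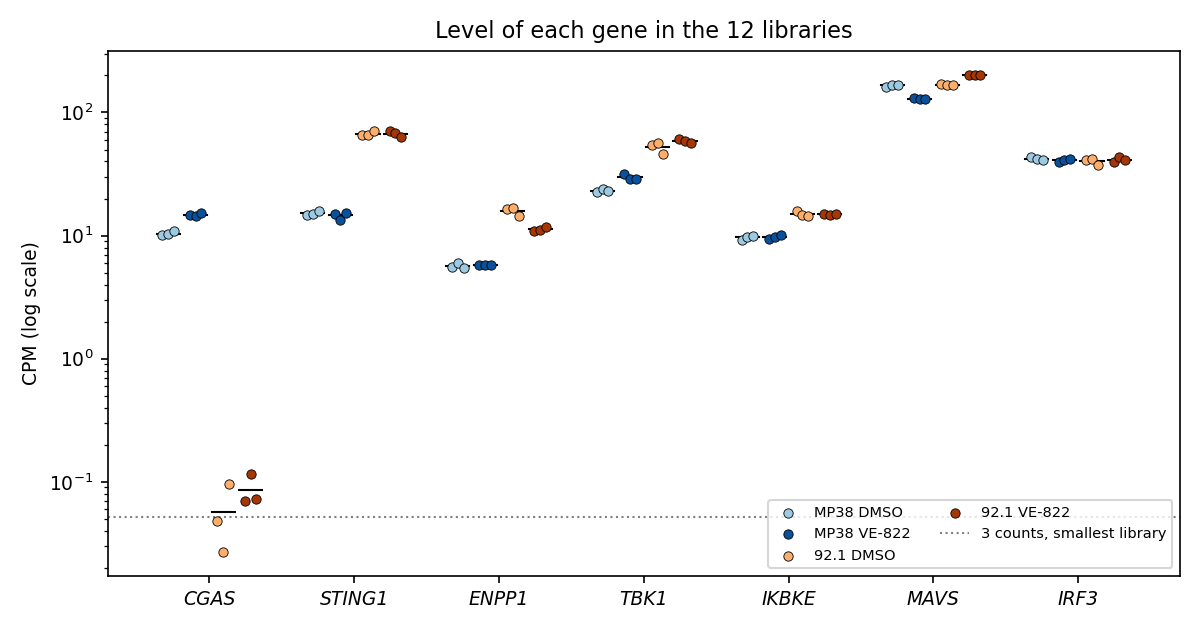
Level of each of the 7 genes in CPM on a log axis, 1 point per library and a short line at the mean of each group of 3. CGAS in 92.1 lies near the dotted line for 3 counts in the smallest library, while STING1, ENPP1, TBK1 and IKBKE lie higher in 92.1 than in MP38.

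Between the untreated lines the sensor and its adaptor went in opposite directions: CGAS was almost absent from 92.1, and STING1, TBK1, ENPP1 and IKBKE were higher there than in MP38. By edgeR's quasi-likelihood test with Benjamini-Hochberg adjustment, 4 of the 7 genes were higher in 92.1 DMSO and 1 was lower, and 2 (IRF3 and MAVS) were not past the threshold of 0.05. The lower gene, CGAS, passed the filter on counts only through MP38. This comparison called 38.5% of all 24958 genes higher and 41.2% lower, so a call by itself does not set the 7 genes apart. The median log2 fold change was 0.63 over the 7 genes and -0.05 over all genes.

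CGAS (ENSG00000164430.17, chr6:73413515-73452297, GRCh38.p13 as are all gene positions below) encodes the DNA sensor and cGAMP synthase. In MP38 DMSO its level was 10.02, 10.3 and 10.9 CPM, from 676, 681 and 745 counts. In 92.1 DMSO it was 0.0479, 0.0270 and 0.0956 CPM, from 5, 3 and 11 counts in libraries of at least 112374503 counts. The lines did not overlap, and the highest of the 3 values in 92.1 was that of library 3, the one that stood apart. The pooled level was 181 times as high in MP38 (95% interval 115 to 301, for counting error only), and the log2 fold change was -7.46 ± 0.182 (SE; edgeR adjusted p = 1.66e-15). Of all genes, 3.71% differed at least this far in either direction. As CGAS passed the filter only through MP38, its direction was fixed, and the p-value and this share add no support to the counts. In bulk RNA, fewer expressing cells and less RNA per cell cannot be told apart.

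DDX43, whose annotated span shares 4052 bases with CGAS, had 1381 counts in MP38 DMSO. It was not among the features common to both count tables, and its 92.1 level was filled in as 0. A filled value is not a measured 0, so no fold is given, and the difference was not tested. No source used here tells if strand was counted, and reads of the overlap cannot be assigned with certainty.

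STING1 (ENSG00000184584.13, chr5:139475533-139482935) encodes the cGAMP receptor and adaptor. Its level was 14.6, 14.97 and 15.9 CPM in MP38 DMSO and 65.5, 65.3 and 70.9 CPM in 92.1 DMSO. All 92.1 libraries lay above all MP38 libraries. The log2 fold change was 2.15 ± 0.0638 (SE), 4.43-fold higher in 92.1 (edgeR adjusted p = 1.80e-14), and 24.9% of all genes differed at least this far.

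ENPP1 (ENSG00000197594.14, chr6:131808016-131895155) encodes the membrane enzyme that hydrolyses extracellular cGAMP. It stood at 5.55, 6.02 and 5.49 CPM in MP38 DMSO and at 16.3, 16.9 and 14.5 CPM in 92.1 DMSO. The groups did not overlap, and ENPP1 was 2.80-fold higher in 92.1 (log2 1.49 ± 0.0749 SE, edgeR adjusted p = 1.62e-11).

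TBK1 (ENSG00000183735.11, chr12:64452090-64502114) encodes the kinase that phosphorylates IRF3, and IKBKE (ENSG00000263528.8, chr1:206470476-206496889) its close relative IKK-epsilon. TBK1 was at 22.6, 23.8 and 22.8 CPM in MP38 DMSO and at 54.3, 56.4 and 46.1 CPM in 92.1 DMSO, with the lowest 92.1 value in library 3. It was 2.26-fold higher in 92.1 (log2 1.18 ± 0.0697 SE, edgeR adjusted p = 1.34e-10). IKBKE was at 9.28, 9.79 and 9.98 CPM in MP38 DMSO and at 15.7, 14.7 and 14.4 CPM in 92.1 DMSO. Both kinases were higher in every 92.1 library than in any MP38 library, IKBKE by 1.54-fold (log2 0.63 ± 0.0616 SE, edgeR adjusted p = 9.41e-08).

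MAVS (ENSG00000088888.18, chr20:3846799-3876123) encodes the mitochondrial adaptor of RNA sensing, and IRF3 (ENSG00000126456.16, chr19:49659569-49665875) the transcription factor below both adaptors. MAVS was at 162, 167 and 168 CPM in MP38 DMSO and at 169, 166 and 167 CPM in 92.1 DMSO. IRF3 was at 43.6, 41.5 and 41.1 CPM in MP38 DMSO and at 40.9, 42.2 and 37.5 CPM in 92.1 DMSO. For both genes the lines overlapped, with a 95% interval of the log2 difference of -0.0691 to 0.0951 for MAVS and -0.183 to 0.0495 for IRF3 (edgeR adjusted p = 0.765 and 0.271). These 2 results depend on the scaling: with library size alone, which shifts the median of all genes by -0.22, both were called lower in 92.1, MAVS at -0.21 and IRF3 at -0.28, values close to that shift. BCL2L12 shares 734 bases with IRF3 and was at 20.3 CPM in MP38 DMSO and 31.9 CPM in 92.1 DMSO.

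Per length, on the deposited FPKM scale, the order in MP38 DMSO was MAVS (15.2), IRF3 (11.98), STING1 (3.41), IKBKE (2.76), CGAS (2.69), TBK1 (1.696) and ENPP1 (0.537). IKBKE, at 2.63 to 2.83 FPKM, and CGAS, at 2.58 to 2.81 FPKM, overlapped, and no other neighbours in that order did. In 92.1 DMSO the order was MAVS (13.2), STING1 (13.02), IRF3 (9.84), IKBKE (3.66), TBK1 (3.30), ENPP1 (1.29) and CGAS (0.0127). There MAVS, at 13.1 to 13.3 FPKM, lay within the range of STING1, 12.6 to 13.8 FPKM, and IKBKE (3.55 to 3.85) overlapped TBK1 (2.92 to 3.56). CGAS therefore took a place beside IKBKE in MP38 and the last place in 92.1, while STING1 stood beside MAVS in 92.1.

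In MP38, VE-822 raised CGAS and TBK1 and lowered MAVS, each by less than 1.5-fold, and STING1, ENPP1, IKBKE and IRF3 did not pass the test. The counts were 2 of 7 higher and 1 of 7 lower, where 26.9% of 21415 genes were called higher and 25.4% lower, shares of the same order. The median log2 fold change was 0.0073 over the 7 genes and -0.01 over all genes.

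CGAS rose in MP38 from 10.02, 10.3 and 10.9 CPM to 14.7, 14.4 and 15.4 CPM. All VE-822 libraries lay above all DMSO libraries, with a log2 fold change of 0.50 ± 0.0604 (SE), or 1.42-fold (edgeR adjusted p = 5.51e-07). TBK1 rose from 22.6, 23.8 and 22.8 CPM to 31.9, 28.9 and 28.6 CPM, again without overlap. Its log2 fold change was 0.36 ± 0.0502 (SE), or 1.28-fold (edgeR adjusted p = 4.31e-06).

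MAVS fell in MP38 from 162, 167 and 168 CPM to 131, 129 and 129 CPM. The groups lay far apart for their spread, and MAVS fell by 0.37 on the log2 scale (SE 0.0358, edgeR adjusted p = 3.30e-08). Of the genes tested, 38.7% differed at least this far in MP38, 26.03% at least as far as CGAS and 39.5% at least as far as TBK1.

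STING1 stood at 14.9, 13.4 and 15.4 CPM in MP38 VE-822, within reach of its DMSO libraries, with a 95% interval of the log2 fold change of -0.198 to 0.0602. IRF3 (39.6, 41.5 and 41.8 CPM; interval -0.136 to 0.0402), ENPP1 (5.80, 5.79 and 5.72 CPM; interval -0.156 to 0.182) and IKBKE (9.46, 9.81 and 10.1 CPM; interval -0.130 to 0.144) also overlapped their DMSO libraries. The adaptor, the transcription factor, the cGAMP hydrolase and the second kinase thus gave edgeR adjusted p-values of 0.365 to 0.936.

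In 92.1, VE-822 raised MAVS and lowered ENPP1, and STING1, TBK1, IRF3 and IKBKE did not pass the test. Of 6 genes tested, 1 was higher and 1 lower, where 20.3% of 22943 genes were called higher and 19.6% lower, again a share near that of all genes. The median log2 fold change was -0.0183 over these 6 genes and 0.0310 over all genes.

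MAVS rose in 92.1 from 169, 166 and 167 CPM to 201, 201 and 203 CPM. No VE-822 library came near the DMSO range, and the log2 fold change was 0.23 ± 0.0412 (SE), or 1.17-fold (edgeR adjusted p = 0.00246). ENPP1 fell from 16.3, 16.9 and 14.5 CPM to 10.98, 11.02 and 11.8 CPM. The groups did not overlap, and ENPP1 fell by 0.54 on the log2 scale (SE 0.0747, edgeR adjusted p = 0.00066), or by 0.63 without DMSO library 3. In VE-822 it was still above every MP38 library.

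TBK1 in 92.1 was at 60.6, 58.9 and 56.9 CPM in VE-822, above its DMSO values of 54.3, 56.4 and 46.1 CPM with no overlap. Its log2 fold change of 0.13 (95% interval -0.0368 to 0.301) did not pass edgeR's test (adjusted p = 0.192). Without DMSO library 3, its lowest DMSO value, the log2 fold change was 0.0212. STING1 (70.2, 68.6 and 63.2 CPM), IRF3 (39.5, 43.2 and 41.0 CPM) and IKBKE (15.1, 14.8 and 14.9 CPM) overlapped their DMSO libraries, with edgeR adjusted p-values of 0.658, 0.999 and 0.626.

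CGAS in 92.1 VE-822 had 9, 15 and 8 counts, or 0.0701, 0.116 and 0.0728 CPM, and was too low for the filter on counts. Its pooled level was 1.52 times that in DMSO, with a counting interval of 0.834 to 2.83 that includes 1, so a change of CGAS was not detectable in 92.1 at this depth. In VE-822 the MP38 level was 170 times that of 92.1 (95% interval 120 to 249, for counting error only).

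**Figure D2:**
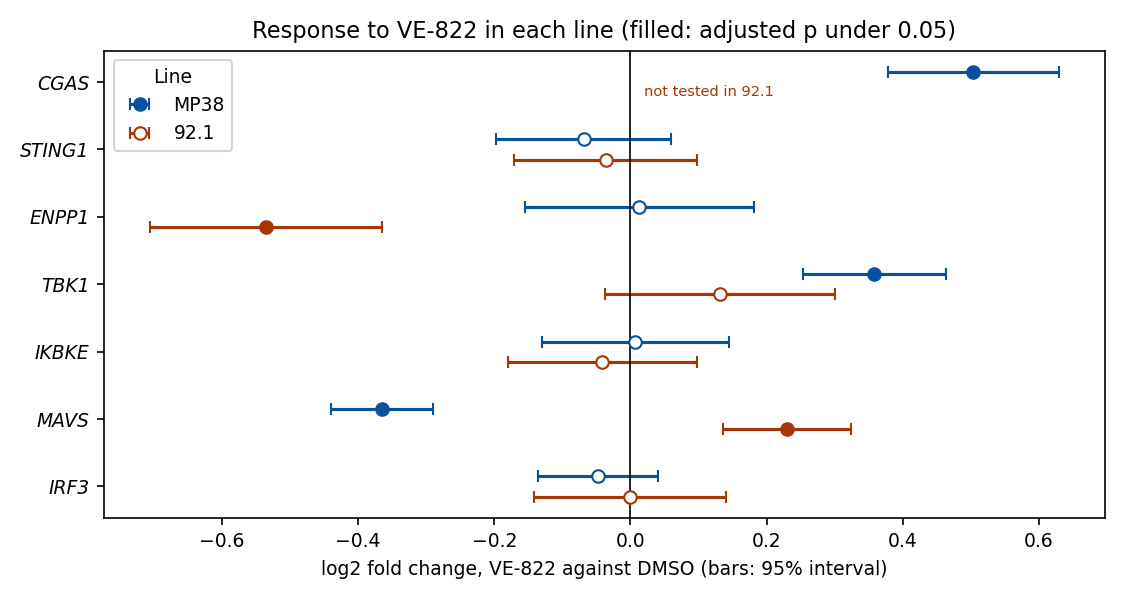
Log2 fold change of each gene, VE-822 against DMSO, in MP38 and 92.1 with 95% intervals, filled where the adjusted p is under 0.05. MAVS lies at -0.37 in MP38 and 0.23 in 92.1, ENPP1 at 0.01 in MP38 and -0.54 in 92.1, and STING1, IKBKE and IRF3 have intervals across 0 in both lines.

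The responses of MAVS and ENPP1 differed between the lines. The difference, 92.1 response minus MP38 response in 1 fit of the 12 libraries, was 0.62 ± 0.0547 (SE) for MAVS (edgeR adjusted p = 2.00e-07), whose direction was opposite in the 2 lines. For ENPP1 it was -0.52 ± 0.106 (SE; edgeR adjusted p = 0.000928), with the fall in 92.1. Thus 1 of 7 genes had a higher and 1 of 7 a lower difference, where 22.1% of 24958 genes had a higher and 18.8% a lower one. The median difference was 0.06 over the 7 genes and 0.11 over all genes.

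TBK1 rose in MP38 and was not past the test in 92.1, but the difference of -0.20 (95% interval -0.405 to 0.00919) was not past it either (edgeR adjusted p = 0.119). It passed when 92.1 DMSO library 3 was left out (-0.32, adjusted p = 0.000119) and when MP38 VE-822 library 3 was left out (-0.27, adjusted p = 0.0481). Leaving out either of these libraries thus changes the call. For CGAS the difference was 0.0758 with an interval of -0.655 to 0.806, too wide to compare the lines. STING1 (-0.126 to 0.249), IRF3 (-0.0875 to 0.241) and IKBKE (-0.205 to 0.166) had intervals across 0.

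**Figure D3:**
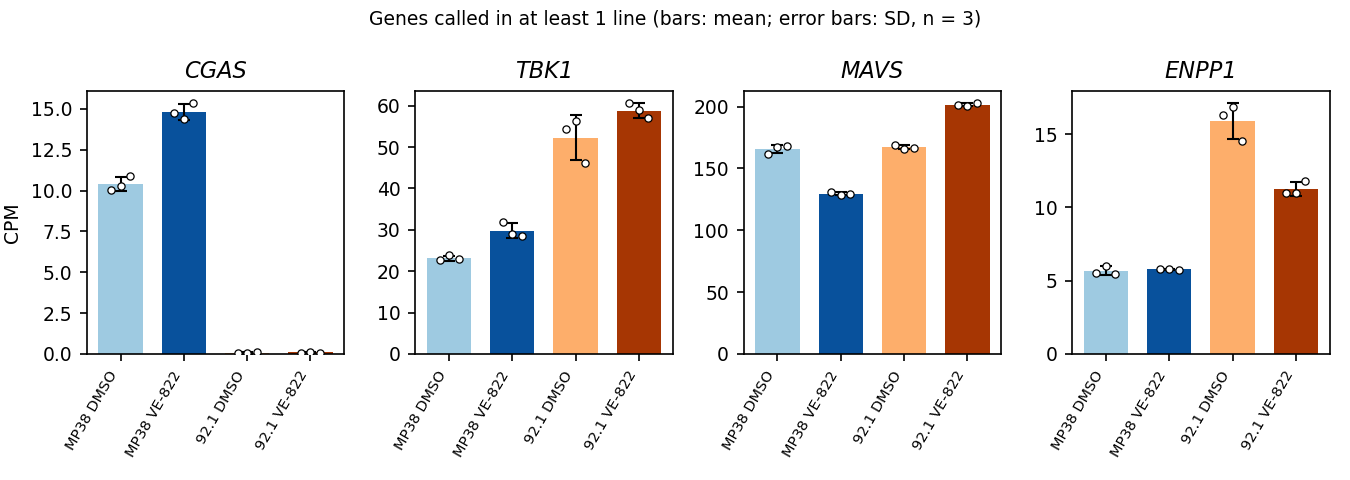
CPM of the 4 genes called in at least 1 line, with bars at the mean, error bars of 1 SD (n = 3) and a point per library, each axis starting at 0. CGAS and TBK1 are higher in MP38 VE-822 than in MP38 DMSO, MAVS moves down in MP38 and up in 92.1, and ENPP1 is lower in 92.1 VE-822.

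Other DNA sensors and genes that act on STING formed a list of 18, and 17 were tested between the untreated lines, with 4 higher and 8 lower in 92.1 and a median of -0.09. For this and the lists below, the shares of all genes to read the counts against are 38.5% higher and 41.2% lower between untreated lines, 26.9% and 25.4% in MP38, and 20.3% and 19.6% in 92.1. IFI16, a nuclear DNA sensor that works with cGAS, stood at 597 ± 9.74 CPM (SD, n = 3) in MP38 DMSO and 0.720 ± 0.265 CPM in 92.1 DMSO (log2 -9.68 ± 0.151 SE, edgeR adjusted p = 8.09e-18). AIM2, a sensor that forms inflammasomes, had 140 counts in MP38 DMSO and none in 92.1 DMSO. Against a floor of 3 counts over the group, it was at least 76.2-fold higher in MP38. AIM2 passed the filter on counts only through MP38. TRIM56, a ubiquitin ligase reported to act on both cGAS and STING, was lower in 92.1 by log2 -1.10 ± 0.0698 (SE), and so was STIM1, which holds STING in the endoplasmic reticulum, at -0.75 ± 0.0521.

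With VE-822, 8 of 16 tested genes of that list rose and 2 fell in MP38, and 5 of 15 rose and 5 fell in 92.1. G3BP1, which helps cGAS to bind DNA, rose in MP38 (log2 0.45 ± 0.0438 SE) and fell in 92.1 (-0.35 ± 0.0546), with a difference of -0.77. BANF1, which shields nuclear DNA from cGAS, did likewise, at 0.34 ± 0.0401 and -0.30 ± 0.0470. STIM1 rose in both lines, by 0.46 and 0.34. In 92.1 IFI16 stood at 1.46 ± 0.191 CPM in VE-822, and its response differed between the lines by 0.98 ± 0.187 (SE) at this low level.

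Of 10 genes for cGAMP transport and breakdown beside ENPP1, 5 were higher and 3 lower in untreated 92.1. LRRC8C, a subunit of volume-regulated channels that pass cGAMP, was at 10.7 ± 0.585 CPM in MP38 DMSO and 74.1 ± 1.24 CPM in 92.1 DMSO. SLC19A1, an importer of cyclic dinucleotides, was at 38.6 ± 1.12 and 66.6 ± 7.36 CPM, and SMPDL3A, another cGAMP-degrading enzyme, at 2.84 ± 0.197 and 7.62 ± 1.19 CPM. Like ENPP1, these 3 were called higher in 92.1. The list did not share 1 direction. ENPP3, of the same list, averaged 0.787 CPM in MP38 DMSO and 0.0966 CPM in 92.1 DMSO. LRRC8D, also of this list, averaged 74.8 CPM in MP38 DMSO and 32.2 CPM in 92.1 DMSO. Its highest 92.1 DMSO value, 46.1 CPM, was that of library 3, the one that stood apart.

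With VE-822, 4 of the 10 rose and 5 fell in MP38, and 1 rose and 2 fell in 92.1. SLC19A1 fell in both lines, by 0.90 on the log2 scale in MP38 and by 0.37 in 92.1, where the call was lost with log2(FPKM + 1) (-0.25, limma adjusted p = 0.0749). LRRC8C, like ENPP1, fell in 92.1 (log2 -1.03 ± 0.0549 SE), where it went from 74.1 to 37.3 CPM. P2RX7, an ATP-gated channel that lets cGAMP enter, rose in both lines, by 0.56 in MP38 and by 1.23 in 92.1.

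Among genes that clear nucleic acids, the group to which TREX1 belongs, 12 were tested, with 5 higher and 6 lower in untreated 92.1. With VE-822, 5 rose and 4 fell in MP38, and 4 rose and 5 fell in 92.1. RNASEH2B, a subunit of the RNase H2 that removes RNA from DNA, rose in MP38 (log2 0.24 ± 0.0434 SE) and fell in 92.1 (-0.95 ± 0.0645). The rise in MP38 was not called with log2(FPKM + 1) (0.12, limma adjusted p = 0.105). LSM11, a histone RNA processing factor, rose by 0.36 in MP38 and fell by 0.83 in 92.1. SAMHD1, a dNTP hydrolase, rose in 92.1 by 0.67 ± 0.0702, from 15.8 to 25.8 CPM.

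A list of 10 RNA sensing genes held the MAVS partner TOMM70 and sensors and regulators that signal through MAVS. It also held TLR3 with its adaptor TICAM1, which signal without MAVS, and the RNA-activated kinase EIF2AK2, lower in untreated 92.1 (log2 -1.23). In untreated 92.1, 7 of the 10 were lower and 2 higher with a median of -1.08 (all genes 41.2% lower and 38.5% higher), while MAVS itself did not pass the test. DHX58 (LGP2), a regulator of RIG-I and MDA5, was at 52.0 ± 2.11 CPM in MP38 DMSO and 0.452 ± 0.165 CPM in 92.1 DMSO. IFIH1 (MDA5), a sensor of long double-stranded RNA, was at 26.9 ± 1.36 and 1.56 ± 0.228 CPM. With VE-822, 5 rose and 1 fell in MP38, and 4 rose and 2 fell in 92.1. In 92.1 the call of RIGI was lost in 4 of 13 alternative settings and that of TRIM25 in 1 of 14. In MP38 the call of IFIH1 was lost in 1 of 14. TOMM70, the mitochondrial receptor that ties MAVS to TBK1, rose in MP38 (0.25 ± 0.0350), where MAVS fell.

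Of 16 adaptors of the kinases and transcription factors, 7 were higher and 8 lower in untreated 92.1. IRF7, the interferon-inducible relative of IRF3, was at 107 ± 2.14 CPM in MP38 DMSO and 4.75 ± 0.152 CPM in 92.1 DMSO (log2 -4.50 ± 0.0566 SE). IKBKB was higher in 92.1 (1.00 ± 0.0394) and NFKB1 lower (-1.07 ± 0.0437). With VE-822, 6 rose and 3 fell in MP38, and 3 rose and 5 fell in 92.1. TBKBP1, an adaptor of TBK1, fell in MP38 by 0.35 and rose in 92.1 by 0.44, the same pair of directions as MAVS. OPTN, another TBK1 partner, rose in both, by 0.56 and by 0.63.

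**Figure D4:**
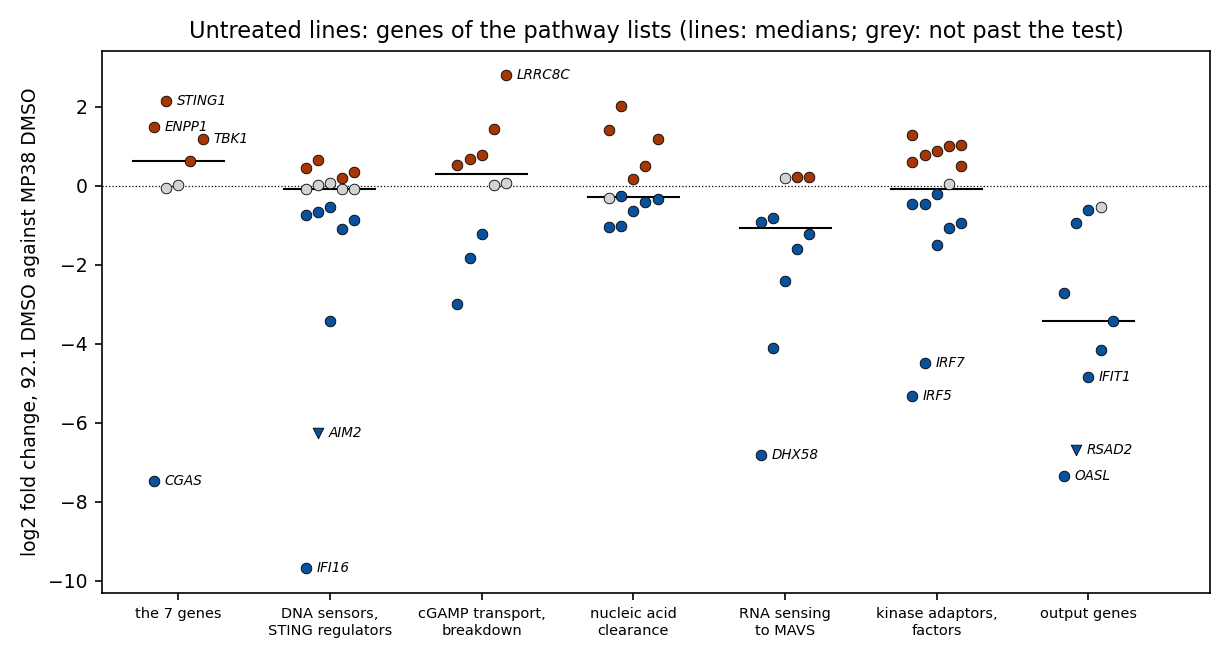
Log2 fold change of 92.1 DMSO against MP38 DMSO for every tested gene of the 7 lists, with a line at each median, red for higher, blue for lower and grey for not past the test. CGAS (-7.46) lies apart from the other 6 genes of its list, and triangles mark AIM2 and RSAD2, which had no count in 92.1 DMSO and are drawn at the bound set by 3 counts.

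Genes that the pathway switches on were listed as 19, and 8 were tested in MP38 and 6 in 92.1. Type I and III interferons and the chemokines were at or near 0: IFNB1 had 1, 0 and 0 counts in MP38 DMSO and 0, 0 and 7 in MP38 VE-822, all of the latter in library 3. In 92.1 IFNB1 had 1 count in 6 libraries. CXCL10 had at most 4 counts in any library, and CCL5 had 5, 1 and 3 counts in MP38 DMSO and 11, 11 and 9 in MP38 VE-822, too few for the filter in MP38.

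Without treatment, 9 of the 19 output genes passed the filter on counts between the lines, and 8 were lower in 92.1 and none higher. Their median was -3.43, where 41.2% of all genes were lower, 38.5% higher and the median of all genes was -0.05. RSAD2 passed only through MP38, with 190 counts in MP38 DMSO and none in 92.1 DMSO. It may not be the only such gene, as OASL differed by log2 -7.35 ± 0.278 (SE). For such genes the filter fixed the direction, so this count and median are no measure of the whole list. ISG15, a ubiquitin-like modifier, was at 70.1 ± 1.93 CPM in MP38 DMSO and 6.504 ± 1.14 CPM in 92.1 DMSO, and IFIT1, which binds viral RNA, at 35.3 ± 2.19 and 1.24 ± 0.0933 CPM.

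With VE-822, 6 of 8 tested output genes rose in MP38 and none fell, where 26.9% of all genes rose and 25.4% fell. None of 6 was called in 92.1, where 20.3% of all genes rose and 19.6% fell. In MP38 TNFAIP3, an inhibitor of NF-kappaB signalling, rose from 3.94 ± 0.197 to 11.7 ± 0.591 CPM (log2 1.56 ± 0.0762 SE, edgeR adjusted p = 8.27e-13), IFIT3 from 65.8 ± 2.47 to 98.6 ± 3.00 CPM and IFIT1 from 35.3 to 45.2 CPM. ISG15 was not past the test in MP38 (log2 0.0863, adjusted p = 0.128). In 92.1 IFIT1 stood at 1.24 and 1.07 CPM, and its response differed from that in MP38 by -0.56 ± 0.122 (SE; edgeR adjusted p = 0.00168). ISG15 in 92.1 was just short of the threshold (log2 0.37, adjusted p = 0.0517) and past it under other settings, with an adjusted p of 4.1e-05 without DMSO library 3.

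**Figure D5:**
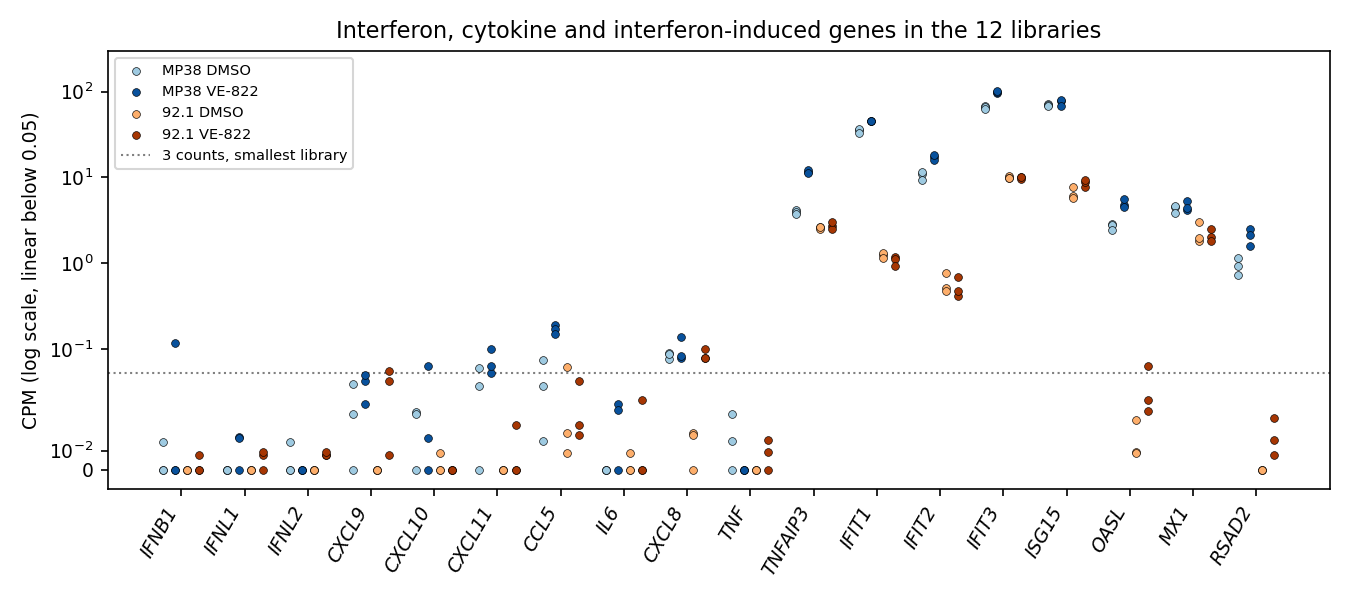
CPM of the interferon, cytokine and interferon-induced genes in each of the 12 libraries, on an axis that is logarithmic above 0.05 and linear below. Interferons and chemokines lie near or under 3 counts, apart from CCL5, which lies above that line in MP38 VE-822. TNFAIP3, the IFIT genes, OASL and RSAD2 are higher in MP38 VE-822 than in MP38 DMSO.

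The genes whose pattern over the 12 libraries was closest to CGAS, among 10932 protein-coding genes averaging 5 CPM or more, were HTR7, ZNF426 and SLC22A18AS. Their root mean square difference from CGAS, on log2 CPM centred on each gene's mean with a pseudocount of 0.1, was 0.229, 0.230 and 0.249. Those closest to STING1 were TET2 (0.0780), KIF13A (0.0865) and SARAF (0.0993). Like CGAS, HTR7 was near 0 in 92.1 DMSO (0.018 CPM, against 9.98 CPM in MP38 DMSO), and like STING1, TET2 was higher there (47.7 against 10.6 CPM).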

How the data were processed

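Per the submitters' processing notes the authors' tools were STAR 2.7.11a, featureCounts 2.0.6, cutadapt 4.8, MultiQC 1.7 and FastQC 0.12.1, and the build was GRCh38.p13. The authors deposited raw counts per gene, 1 table per line, and FPKM values made from them; use of strand is not given in the sources used here. Depth was 54415628 to 137664800 counts per library.

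Counts were tested in R 4.3.3 with edgeR 4.0.16: filterByExpr (minimum count 10, total 15), TMM, quasi-likelihood F test, Benjamini-Hochberg adjustment over all genes tested, call under 0.05. Each line's response was fitted alone. The difference and the untreated lines came from 1 fit of 12 libraries over features in both tables. CPM values share 1 TMM scale and are given as mean ± SD, and SE come from the F statistic. The fits were tested on simulated data. No exact permutation test of 3 against 3 can go below 0.1.

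The 8 genes, the 6 other lists and the tests were chosen with earlier results of these data known. Named genes are the 8, up to 4 called genes per list with the smallest adjusted p, IFNB1, CXCL10, CCL5, ISG15 and IFIT1. Also named are 3 nearest patterns of CGAS and STING1, and genes overlapping a member. AIM2, RSAD2, ENPP3 and the genes near CGAS were named after the values were seen. RIGI and SKIC2 stand in the tables as DDX58 and SKIV2L. TREX1, DNASE1L3 and IFNL3 were not analysed here, and the result of another listed gene is not reported here. Alternatives were other scaling (RLE, library size), filters, DESeq2 1.42.0, limma 3.58.1 on log2(FPKM + 1), a replicate block, other samples or features in the fit, and leaving out each library.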

Additional observations from a re-analysis of the deposited data

Results flagged for a closer look

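The responses to VE-822 of 25 genes given here differed between the lines by edgeR's test of the difference itself (92.1 response minus MP38 response, log2). Beside MAVS and ENPP1 they are among the called genes with the smallest adjusted p of each list, with IFIT1, so their number is set by that choice and is no share of the lists. Among the 7 genes these were MAVS at 0.62 and ENPP1 at -0.52. Among DNA sensors and STING regulators they were IFI16 at 0.98, BANF1 at -0.60 and G3BP1 at -0.77. Among cGAMP transporters they were LRRC8E at 1.16, P2RX7 at 0.70, SLC19A1 at 0.55 and LRRC8C at -1.23. For nucleic acid clearance they were SAMHD1 at 0.90, RNASEH2C at -0.50, RNASEH2B at -1.17 and LSM11 at -1.17. For RNA sensing they were DHX58 at 1.05, RNF135 at 0.39, TRIM25 at -0.33 and TOMM70 at -0.36. Among kinase adaptors and factors they were IRF5 at 1.84, TBKBP1 at 0.82, TRAF6 at -0.56 and TRAF2 at -0.68. Among output genes they were IFIT1 at -0.56, IFIT3 at -0.60, IFIT2 at -0.87 and TNFAIP3 at -1.48. IFI16, DHX58, IRF5 and IFIT1 had group means under 1.5 CPM in 92.1, and LRRC8E had group means under 2 CPM in both lines. The difference for IFIT2 had an SE of 0.248 (edgeR adjusted p = 0.0102). With log2(FPKM + 1) the difference for DHX58 was 0.0134 and no longer called (limma adjusted p = 0.889).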

How the results depend on the processing

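No call of the 7 genes was lost under any alternative run. TBK1 in 92.1 passed with a mean of at least 5 CPM (0.22, adjusted p = 0.0282), which made 2 genes higher there. The difference for IRF3 passed with that filter too (0.20, adjusted p = 0.0232), giving 2 higher differences, and log2(FPKM + 1) gave 2 lower ones by calling CGAS at -0.34, a reversal on a scale where its 92.1 FPKM lies far under the added 1. Between untreated lines 3 genes were lower with library size alone, the 5 CPM filter and log2(FPKM + 1): CGAS, IRF3 (-0.28, -0.24 and -0.26) and MAVS, reversed to -0.21, -0.16 and -0.19. IRF5 reversed to a difference of -0.0318 with log2(FPKM + 1); for these reversals of MAVS and IRF5 the cause was not tested.

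The 5 CPM filter, which tests fewer genes, called 2917 genes higher and 2805 lower in 92.1, and 5212 higher and 5122 lower between untreated lines; log2(FPKM + 1) called 2757 lower in 92.1. Leaving out each library gave 3343 to 6899 genes lower in 92.1 and 1 to 2 of the 7 genes with a lower difference. CGAS in 92.1, tested without a filter, gave 0.52 (edgeR adjusted p = 0.556).

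Same-numbered libraries correlated at -0.0293 to -0.00468 in MP38 and 0.0501 to 0.0963 in 92.1. The labels do not say that a number pairs libraries, and the numbers were not taken to pair them. In 92.1 each library still correlated best with its own number, a hint of pairing from the data and not from the design. With a replicate block, 5494 genes were called higher and 5172 lower in MP38 and 4429 and 4333 in 92.1, and among genes named only ISG15 changed its call, in 92.1 (0.38, adjusted p = 0.0255) and in the difference (0.32, adjusted p = 0.0247). Depth limits CGAS in 92.1, at 3 to 15 counts per library.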

Other observations

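Genes within 500 kb of CGAS on chromosome 6, a window chosen after the values were seen, did not share 1 direction between the untreated lines. CD109, a membrane protein, was at 180 ± 2.96 CPM (SD, n = 3) in MP38 DMSO and 1.36 ± 0.411 CPM in 92.1 DMSO, and KHDC1 was at 4.29 ± 0.265 and 0.780 ± 0.0777 CPM. OOEP had no count in 92.1 DMSO, at least 72.4-fold higher in MP38 against a floor of 3 counts over the group. KCNQ5, a potassium channel gene, was higher in 92.1, at 25.2 ± 0.225 CPM in MP38 DMSO and 97.3 ± 9.99 CPM in 92.1 DMSO. Between CGAS and CD109, MTO1 was at 29.7 ± 1.57 and 25.5 ± 4.70 CPM, EEF1A1 at 13219 ± 740 and 14573 ± 879 CPM and SLC17A5 at 15.3 ± 0.609 and 18.96 ± 1.22 CPM. CGAS and CD109 were thus both far lower in 92.1, while these 3 genes between them differed by log2 -0.22, 0.14 and 0.31.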
